A study of Mus musculus with 7 samples.

Results

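The testis-specific serine kinases were followed in the RNA of mouse sperm through the 6 genes Tssk1, Tssk2, Tssk3, Tssk4, Tssk5 and Tssk6. Each gene was read by 1 probe set that the platform annotation assigns to that symbol alone, so all 6 genes were measured, of 22154 genes with such a probe set. Sperm RNA was hybridised to 7 expression arrays. There were 3 arrays of TG3 males, which carry a KDM1A transgene inherited through heterozygous fathers mated to C57BL/6 females and belong to generation 3 of the line. There were 3 arrays of nonTG3 males, littermates of the same generation that did not inherit the transgene, and 1 array of C57BL/6 males. KDM1A is a histone lysine demethylase. TG3 and nonTG3 descend from the same transgenic founders on a C57BL/6 background, so ancestors with the transgene are shared by both and not by the C57BL/6 males. Every TG3 and nonTG3 array held RNA pooled from 4 males and the C57BL/6 array RNA pooled from 5. The labels give no age, do not name the transgene's promoter and are silent on whether pools share males. All p-values here therefore rest on pool-to-pool spread, which may be partly technical.

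Testis-specific serine kinases are a family of small protein kinases, related to the AMP-activated protein kinase, that are made almost only in the germ cells of the testis after meiosis. They phosphorylate proteins of the elongating spermatid and some persist in mature sperm. In mice, male fertility is lost without both Tssk1 and Tssk2, without Tssk3 or without Tssk6, and is reduced without Tssk4. Transcription largely stops as the spermatid nucleus condenses, so RNA found in sperm was mostly made earlier.

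Tssk1 and Tssk2 are neighbouring genes on chromosome 16, with no other gene between them in RefSeq's annotation of GRCm38.p6. Tssk3 lies on chromosome 4, Tssk4 on chromosome 14, Tssk5 on chromosome 15 and Tssk6 on chromosome 8. RefSeq promoter windows of build GRCm38.p6, from 250 bases before to 50 bases after a transcript start, were held for 5 of the 6 genes. Those of 4 genes are shown: the neighbours Tssk1 and Tssk2, Tssk4, which was lower in the line than in C57BL/6, and Tssk6, whose values lay above C57BL/6. The array comparisons make no use of these sequences. The windows shown lie on the plus strand at chr16:17893953-17894252 (Tssk1), chr16:17898387-17898686 (Tssk2), chr14:55649934-55650233 (Tssk4) and chr8:69901934-69902233 (Tssk6). Capitals mark TGACTTCA and TGACG, on either strand.
Tssk1: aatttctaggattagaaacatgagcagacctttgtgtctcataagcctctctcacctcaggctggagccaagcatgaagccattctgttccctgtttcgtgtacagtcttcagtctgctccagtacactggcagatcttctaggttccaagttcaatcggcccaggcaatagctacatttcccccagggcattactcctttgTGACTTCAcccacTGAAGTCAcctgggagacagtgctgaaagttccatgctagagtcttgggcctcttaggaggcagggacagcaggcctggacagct
Tssk2: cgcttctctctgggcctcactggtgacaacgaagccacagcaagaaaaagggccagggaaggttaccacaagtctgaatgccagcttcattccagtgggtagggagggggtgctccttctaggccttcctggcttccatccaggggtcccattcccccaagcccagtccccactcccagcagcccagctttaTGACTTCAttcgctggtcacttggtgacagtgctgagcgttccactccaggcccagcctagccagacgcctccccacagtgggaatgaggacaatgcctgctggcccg
Tssk4: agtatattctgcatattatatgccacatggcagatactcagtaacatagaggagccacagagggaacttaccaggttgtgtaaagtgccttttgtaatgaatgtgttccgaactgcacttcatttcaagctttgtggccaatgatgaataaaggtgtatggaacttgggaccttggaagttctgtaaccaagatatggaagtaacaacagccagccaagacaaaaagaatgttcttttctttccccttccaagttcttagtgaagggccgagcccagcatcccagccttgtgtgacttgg
Tssk6: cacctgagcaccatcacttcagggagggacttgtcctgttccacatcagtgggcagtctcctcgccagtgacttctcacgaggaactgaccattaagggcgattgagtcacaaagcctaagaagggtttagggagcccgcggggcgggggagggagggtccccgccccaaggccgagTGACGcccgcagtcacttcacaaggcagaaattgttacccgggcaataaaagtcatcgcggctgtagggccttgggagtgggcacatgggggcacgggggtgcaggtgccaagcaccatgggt
The cyclic AMP response element TGACGTCA, through which the activator CREM switches on many spermatid genes, was searched for on both strands. It was in none of the 5 windows, and in 1.79% of the 32851 promoter windows of the table. Its core TGACG, which is also contained in TGACGTCA, was in the window of Tssk6 alone among the 5, and in 20.8% of all windows. The variant TGACTTCA, chosen after the sequences had been read, was found 48 and, on the opposite strand, 35 bases before the start of Tssk1 and 58 bases before the start of Tssk2. It was not in the windows of Tssk3, Tssk4 or Tssk6, and it was in 1.52% of all windows. The longest run of bases shared by the Tssk1 and Tssk2 windows was 11 bases, against 7 to 10 in the other pairs of the 5 windows. A match is a description of the letters and shows no binding.

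Values are log2 intensities as the authors deposited them, and 1 log2 unit is a doubling or halving of signal. The median of all probe sets lay between 3.52 and 3.61 on the 7 arrays, and every value of the 6 kinases was above it. Prm1, a protamine that packs sperm DNA, read 10.19 ± 0.09 in the line (TG3 and nonTG3 together; SD, n = 6) and 11.64 in C57BL/6. It was chosen as a defining marker and after its values were known, so it is no test of the label sperm. Across the line's arrays the mean of 10 mitochondrially encoded genes was uneven. It was 8.80 on TG3 replicate 1 and 8.91 on nonTG3 replicate 3, 9.98 on nonTG3 replicate 2, and 11.44 to 11.55 on the 3 remaining line arrays, against 11.24 in C57BL/6. The same 2 arrays, TG3 replicate 1 and nonTG3 replicate 3, had the highest means of 15 smooth muscle and fibroblast genes, 5.84 and 5.50, against 4.63 to 4.96 on the other 4 and 4.81 in C57BL/6.

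TG3 against nonTG3 asks whether the RNAs of these kinases differ with the transgene among littermates. None of the 6 kinases was called, and for each the TG3 and nonTG3 ranges overlapped or met. limma, which fits each probe set by itself and draws on all of them to estimate its spread, was used. It called 0% of the 23493 probe sets tested in this comparison (smallest limma adjusted p = 0.923), and 559 had an unadjusted limma p below 0.05. Called means an adjusted p below 0.05 after Benjamini-Hochberg adjustment over all probe sets. An exact two-sided permutation test on each kinase gave p between 0.3 and 0.8, where 0.1 is the smallest p that 3 arrays against 3 allow, and 0.8 for each after adjustment over the 6. Across all probe sets, 1.65% had every TG3 array below every nonTG3 array and 2.47% every TG3 array above. Kdm1a, the mouse gene for the demethylase, averaged 5.20 ± 0.12 in TG3 and 5.20 ± 0.12 in nonTG3 (SD, n = 3 each), against 5.64 in C57BL/6. For the line against C57BL/6, Kdm1a differed by -0.44 and was not called (limma adjusted p = 0.250). The labels do not say whether its probe set reads the transgene.

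Tssk1 and Tssk2 work as a pair in the spermatid, where both phosphorylate the protein Tsks. Tssk1 read 6.94, 6.46 and 6.28 in TG3 replicates 1, 2 and 3 and 6.62, 6.77 and 7.20 in nonTG3 replicates 1, 2 and 3. TG3 replicate 1 lay inside the nonTG3 range and the other 2 TG3 arrays below it. The difference was -0.30 log2 units (95% interval -0.88 to 0.27; limma adjusted p = 0.923). Tssk2 read 6.64, 6.96 and 6.64 in TG3 and 6.49, 6.45 and 6.64 in nonTG3. TG3 replicates 1 and 3 and nonTG3 replicate 3 held exactly the same value, so the TG3 and nonTG3 ranges met at that value. The source of this tie was not tested. The difference was 0.22 (95% interval -0.08 to 0.52; limma adjusted p = 0.923).

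Tssk3 is a kinase of late spermatids. It read 7.42, 7.38 and 6.67 in TG3 and 7.22, 7.24 and 7.81 in nonTG3. The lowest of the 6 arrays was TG3 replicate 3 and the highest nonTG3 replicate 3, with the other 4 between. The difference was -0.26 (95% interval -0.93 to 0.40; limma adjusted p = 0.923). Tssk4, which phosphorylates the tail protein Odf2, read 4.49, 4.45 and 4.45 in TG3 and 4.23, 4.33 and 4.45 in nonTG3. TG3 replicates 2 and 3 and nonTG3 replicate 3 were exactly tied, and the 6 arrays spanned 0.25. The difference was 0.13 (95% interval -0.09 to 0.34; limma adjusted p = 0.923).

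Tssk5 varied most among the line's arrays. It read 5.47, 4.55 and 4.29 in TG3 and 4.50, 4.86 and 5.46 in nonTG3. Both groups thus held a high array and low ones, over a span of 1.18. The difference was -0.17, with a 95% interval of -1.13 to 0.79 (limma adjusted p = 0.953). Tssk6, which is needed in mice for histone removal from spermatid chromatin, read 8.45, 8.43 and 8.23 in TG3 and 7.97, 8.23 and 8.61 in nonTG3. All 3 TG3 arrays lay within the nonTG3 range. The difference was 0.10 (95% interval -0.35 to 0.55; limma adjusted p = 0.942). The median over the 6 kinases was -0.04, beside 0.0045 over all probe sets tested, and leaving out 1 array moved it between -0.21 (without nonTG3 replicate 1) and 0.14 (without nonTG3 replicate 3), so its sign is not settled.

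**Figure D1:**
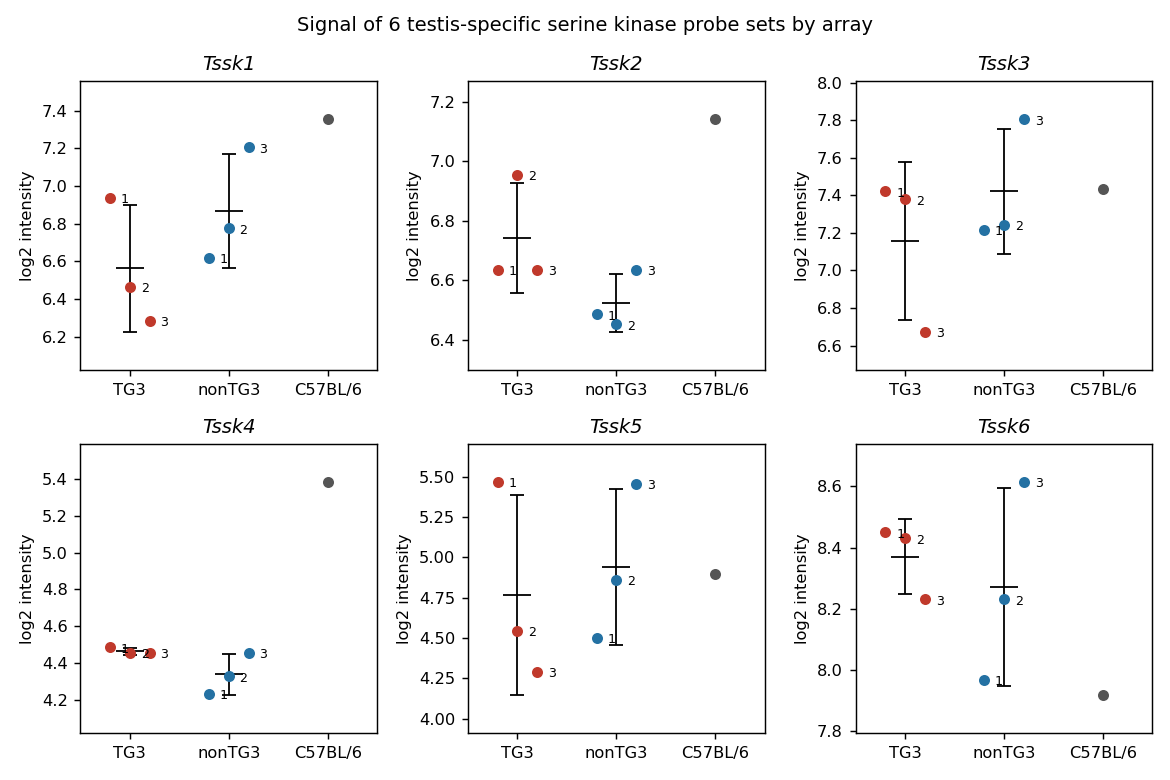
Log2 intensity of each kinase on the 7 arrays. Points are arrays with their replicate number, and bars are the mean and SD of the 3 TG3 and the 3 nonTG3 arrays. The TG3 and nonTG3 points overlap or meet in every panel, all 6 line arrays of Tssk4 lie between 4.23 and 4.49 below the C57BL/6 array at 5.38, and those of Tssk6 lie above it.

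The line against C57BL/6 asks how sperm RNA of both kinds of male from the transgenic line differs from that of outside males. The mean of TG3 and nonTG3 was set against the 1 C57BL/6 array, whose own spread is unknown and is assumed to be like that of the other arrays. Of the 6 kinases, Tssk4 fell and the other 5 did not pass the test. Of all 23493 probe sets 3.02% were called, 2.85% as lower and 0.17% as higher in the line. The median change of the 6 was -0.33 log2 units, beside 0.037 over all probe sets. Estimates were negative for 5 of the 6, and for 9172 of all 23493 probe sets. Those of Tssk3 and Tssk5 were small, at -0.15 and -0.04.

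Tssk4 averaged 4.40 ± 0.10 in the line (SD, n = 6) and read 5.38 in C57BL/6. All 6 arrays of the line lay below C57BL/6, with the highest of them, TG3 replicate 1, at 4.49. The difference of -0.98 (95% interval -1.27 to -0.70, limma adjusted p = 0.0139) is a signal 1.98-fold lower in the line. The 6 line arrays held 4 distinct values of Tssk4, with 3 arrays exactly tied at 4.45. The interval and the call rest on the spread of these partly tied values. Against C57BL/6 separately, Tssk4 differed by -0.92 in TG3 (limma adjusted p = 0.0244) and by -1.05 in nonTG3 (limma adjusted p = 0.0163). Of all probe sets, 2.53% were called in TG3 (2.41% lower, 0.119% higher) and 2.53% in nonTG3 (2.43% lower, 0.0936% higher). These comparisons share the C57BL/6 array and are not independent of each other. Leaving out nonTG3 replicate 2 ended the call for the line (-0.98, limma adjusted p = 0.0522), as did leaving out TG3 replicate 1 and nonTG3 replicate 3 together (-1.02, limma adjusted p = 0.0875). In TG3 the call was lost without any 1 of the TG3 arrays or without nonTG3 replicate 2 (limma adjusted p from 0.0661 to 0.0823). It was also lost in TG3 after repeated quantile normalization (-0.82, limma adjusted p = 0.0588), with only the groups compared (limma adjusted p = 0.101), without both arrays named above (limma adjusted p = 0.115) and at a threshold of 0.01, so that 10 of 18 alternatives kept it. In nonTG3 it was lost without TG3 replicate 2 (limma adjusted p = 0.0526), without nonTG3 replicate 2 (limma adjusted p = 0.0712), without both arrays (limma adjusted p = 0.107), with only the groups compared (limma adjusted p = 0.123) and at 0.01, and 13 of 18 alternatives kept it. The 18 include a looser threshold of 0.1 on the main fit, at which a call could not be lost.

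Tssk1 averaged 6.71 ± 0.33 in the line (SD, n = 6) and read 7.35 in C57BL/6. Its 6 line arrays lay below C57BL/6, although nonTG3 replicate 3, at 7.20, came close. The difference of -0.64 was not called (95% interval -1.40 to 0.12; limma adjusted p = 0.522). Tssk2 averaged 6.63 ± 0.18 in the line (SD, n = 6) and read 7.14 in C57BL/6. It too was below C57BL/6 on all 6 line arrays, and its difference of -0.51 had a 95% interval of -0.91 to -0.11 and an unadjusted p of 0.0212, but was not called over all probe sets (limma adjusted p = 0.252). Having all 6 line arrays below C57BL/6 was shared by 14.3% of all probe sets tested. Within each array, Tssk1 minus Tssk2 was 0.08 ± 0.42 in the line (SD, n = 6) and 0.21 in C57BL/6. The C57BL/6 value lay inside the line's range of -0.49 to 0.57, so no unequal shift of the neighbours was seen beyond that spread.

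Tssk3 and Tssk5 had line arrays on both sides of C57BL/6. Tssk3 averaged 7.29 ± 0.37 in the line (SD, n = 6) against 7.44 in C57BL/6, and 5 of 6 line arrays were lower. The difference was -0.15 (95% interval -1.03 to 0.74; limma adjusted p = 1). Tssk5 averaged 4.85 ± 0.50 in the line (SD, n = 6) against 4.90 in C57BL/6, and 4 of 6 line arrays were lower. The difference was -0.04, and its 95% interval of -1.32 to 1.23 leaves room for a change of more than 1 log2 unit either way (limma adjusted p = 1).

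Tssk6 lay on the other side. It averaged 8.32 ± 0.23 in the line (SD, n = 6) and read 7.92 in C57BL/6, with all 6 line arrays above C57BL/6, the lowest being nonTG3 replicate 1 at 7.97. Such a position was shared by 18.2% of all probe sets. The difference of 0.40 was not called (95% interval -0.19 to 1.00; limma adjusted p = 0.687). Tssk4 minus Tssk6, taken within each array, ran from -4.16 to -3.74 in the line and was -2.54 in C57BL/6. The C57BL/6 difference lay outside the line's range in 9 of the 15 pairs of kinases. Pairs share kinases and are not independent, and no share over other gene pairs was computed, so that count carries no weight. The pair shown was chosen after its values were seen, and no inequality was tested.

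**Figure D2:**
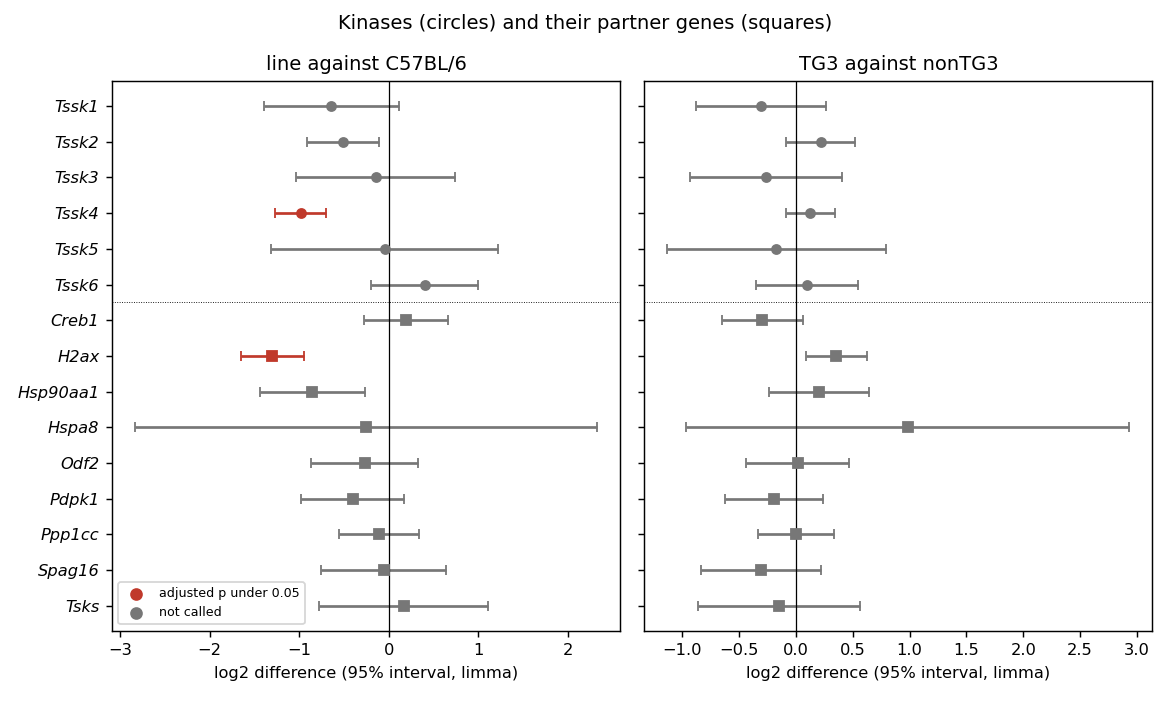
Log2 difference of the kinases (circles) and of genes of their known partners (squares), with the 95% interval from limma, for the line against C57BL/6 on the left and TG3 against nonTG3 on the right. Red marks an adjusted p below 0.05: Tssk4 at -0.98 and H2ax at -1.30 on the left, and no gene on the right.

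The kinases also differed in how much they varied among the 6 pools of the line. The span from the lowest to the highest line array was 0.25 for Tssk4, 0.50 for Tssk2, 0.65 for Tssk6, 0.92 for Tssk1, 1.13 for Tssk3 and 1.18 for Tssk5. Tssk1, Tssk3, Tssk5 and Tssk6 had their 2 highest line values on nonTG3 replicate 3 and TG3 replicate 1, which read the least mitochondrially encoded RNA and had the highest smooth muscle and fibroblast means. For Tssk5 these were 5.47 and 5.46, against 4.86 on nonTG3 replicate 2 and 4.29 to 4.55 on the other 3. For Tssk1 they were 6.94 and 7.20, against 6.77 on nonTG3 replicate 2 and 6.28 to 6.62 on the other 3. In Tssk3 and Tssk6 the gap to the next array, TG3 replicate 2, was small: 7.42 against 7.38 and 8.45 against 8.43. Tssk2 had its highest value, 6.96, on TG3 replicate 2, and Tssk4 differed little between any of them. Both arrays lay above the other 4 of the line in 13.9% of all probe sets. What part mitochondrial RNA, somatic RNA or array scaling has in these values was not tested.

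**Figure D3:**
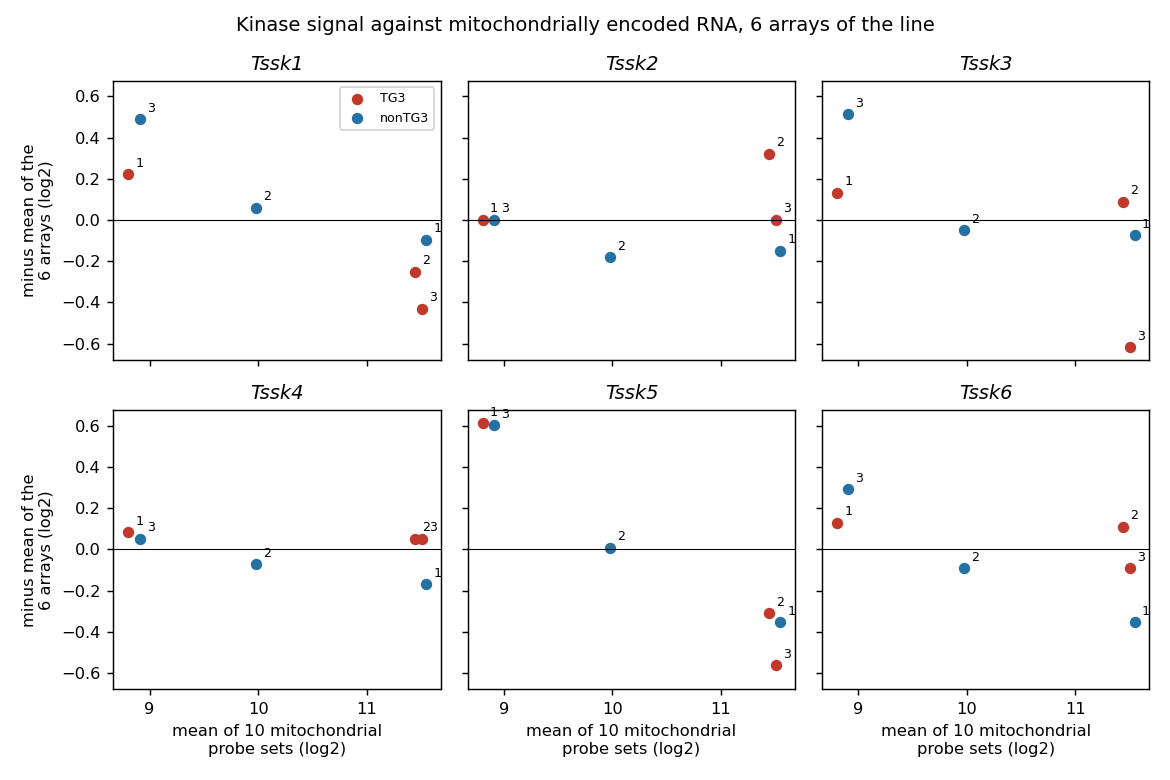
Each kinase on the 6 arrays of the line, as the log2 intensity minus the mean of the 6 (vertical), against the mean log2 intensity of 10 mitochondrially encoded genes (horizontal). Numbers are replicates; Tssk1 and Tssk5 are highest on TG3 replicate 1 and nonTG3 replicate 3 at the left, while Tssk4 stays within a span of 0.25.

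Proteins that the kinases act on or depend on were followed through 9 genes of a list of 11 partners; Tsacc and Hsp90ab1 had no probe set of their own. In the line against C57BL/6 1 of the 9 was called, H2ax, the histone variant whose phosphorylation in spermatids depends on Tssk6 in mice; 3.02% of all probe sets were called in this comparison, 2.85% as lower. H2ax read 5.34, 5.34 and 5.09 in TG3, 5.01, 4.80 and 4.90 in nonTG3, and 6.38 in C57BL/6. All 6 arrays of the line lay below C57BL/6, by -1.30 on average (95% interval -1.65 to -0.94; limma adjusted p = 0.0122), which is 2.46-fold lower. That position of all 6 arrays was shared by 14.3% of all probe sets. That call was lost without TG3 replicate 1 and nonTG3 replicate 3 together (-1.32, limma adjusted p = 0.126). H2ax was also the partner whose TG3 and nonTG3 arrays did not overlap, higher in TG3 by 0.35 (95% interval 0.08 to 0.62), but it was not called over all probe sets (limma adjusted p = 0.923). Separation in this direction was found in 2.47% of all probe sets.

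Tsks, the shared substrate of Tssk1 and Tssk2, read 8.13, 7.88 and 7.16 in TG3, 7.66, 7.77 and 8.18 in nonTG3, and 7.63 in C57BL/6. Its 2 highest values again fell on TG3 replicate 1 and nonTG3 replicate 3, and the line had values on both sides of C57BL/6 (0.17, limma adjusted p = 1). Odf2, the outer dense fibre protein phosphorylated by Tssk4, averaged 8.10 ± 0.22 in the line (SD, n = 6) and read 8.37 in C57BL/6 (-0.27, limma adjusted p = 0.925). Spag16, an axonemal protein that Tssk2 phosphorylates, averaged 6.61 ± 0.31 in the line (SD, n = 6) and read 6.66 in C57BL/6 (-0.06, limma adjusted p = 1). Neither tail gene was called. Pdpk1, a kinase that can activate Tssk3, differed by -0.40 (limma adjusted p = 0.658). Ppp1cc, a phosphatase found with Tsks, read 3.34 ± 0.15 in the line (SD, n = 6) and 3.44 in C57BL/6, and all its values lay below the lowest array median. Creb1, a transcription factor that Tssk4 can phosphorylate, differed by 0.19 (limma adjusted p = 0.959).

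Of the chaperones that keep these kinases stable, Hsp90aa1 averaged 6.01 ± 0.24 in the line (SD, n = 6) and read 6.87 in C57BL/6 (-0.85, 95% interval -1.43 to -0.27; limma adjusted p = 0.183). It was not called. Hspa8 was read by 4 probe sets, which were uneven within nonTG3: the brightest read 8.05, 9.05 and 8.94 in TG3, 9.44, 6.69 and 6.97 in nonTG3 and 8.44 in C57BL/6. The estimates of its probe sets for the line against C57BL/6 ran from -0.27 to 0.10 and none was called. Between TG3 and nonTG3 none of the 9 partners was called.

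Other gene lists give the setting for these values. Of 27 late spermatid and sperm genes, 14 fell in the line against C57BL/6 and 0 rose, with a median of -1.39, against 1 of 6 and a median of -0.33 for the kinases. Among these genes Spata19, a mitochondrial protein of sperm, fell by 4.06 log2 units and the acrosomal genes Spaca1 and Acrv1 fell by 2.85 and 2.73. Of 19 meiotic genes 6 fell, with a median of -0.78, and of 28 genes for other kinases and kinase anchors of testis and sperm 3 fell, with a median of -0.27. Those 3 were Haspin, a histone kinase (3.67 ± 0.38 in the line, SD, n = 6, against 6.63 in C57BL/6), Stk33, which is needed for sperm tail formation (5.52 ± 0.14, SD, n = 6, against 6.91) and Csnk2a2, a casein kinase 2 subunit (5.04 ± 0.10, SD, n = 6, against 5.71). Of 22 AMPK-related kinase genes, the nearest relatives of the family outside the germ line, 0 were called and the median was 0.073. The sperm motility kinases Smok2a, Smok2b and Smok4a, close relatives in the mouse, had estimates of 0.33, 0.06 and 0.32 and were not called. Beside these stand the 2.85% of all probe sets called lower, and the difference between lists was not tested.

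Some markers of testicular somatic cells were also lower in the line than in C57BL/6. Of 6 Leydig cell genes 4 were called lower in the line, with a median of -1.09, and the mean of the list was 2.53 to 2.74 on the line's arrays against 4.09 in C57BL/6. The line means of all 6 lay below the lowest array median, so the size of that fall is uncertain. Of 14 Sertoli cell genes 4 were called lower, namely Defb19, Cst9, Cst12 and Defb36, but the median was -0.13 and the 10 others lay between -0.86 and 0.54. Of the 14 estimates 5 were positive and 9, the 4 called genes among them, negative. The list's mean, 3.16 to 3.39 on the line's arrays against 4.49 in C57BL/6, thus rests on the 4 called genes. Cyp17a1, a steroid-making enzyme of Leydig cells, read 2.40 ± 0.25 in the line (SD, n = 6) and 6.56 in C57BL/6. Defb19, a defensin, read 2.92 ± 0.05 in the line (SD, n = 6) and 9.18 in C57BL/6. Both line means lay below the lowest array median, and with no measure of background in the files no size is given for their fall. Cyp11a1, another steroid enzyme, had 2 probe sets: the one that stood for the gene read 3.21 in the line and 3.20 in C57BL/6, below the lowest array median throughout, and the other read 2.71 in the line and 4.74 in C57BL/6. None of 15 leukocyte, 15 smooth muscle and fibroblast or 14 spermatogonial genes was called, and 1 of 18 epididymal genes, Lcn8, was called higher in the line, at 3.16 against 2.45 in C57BL/6, both below the lowest array median. Fewer cells of a type and less RNA per cell cannot be told apart in pooled RNA, and what part testis cells have in the Tssk4 and H2ax values was not tested.

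**Figure D4:**
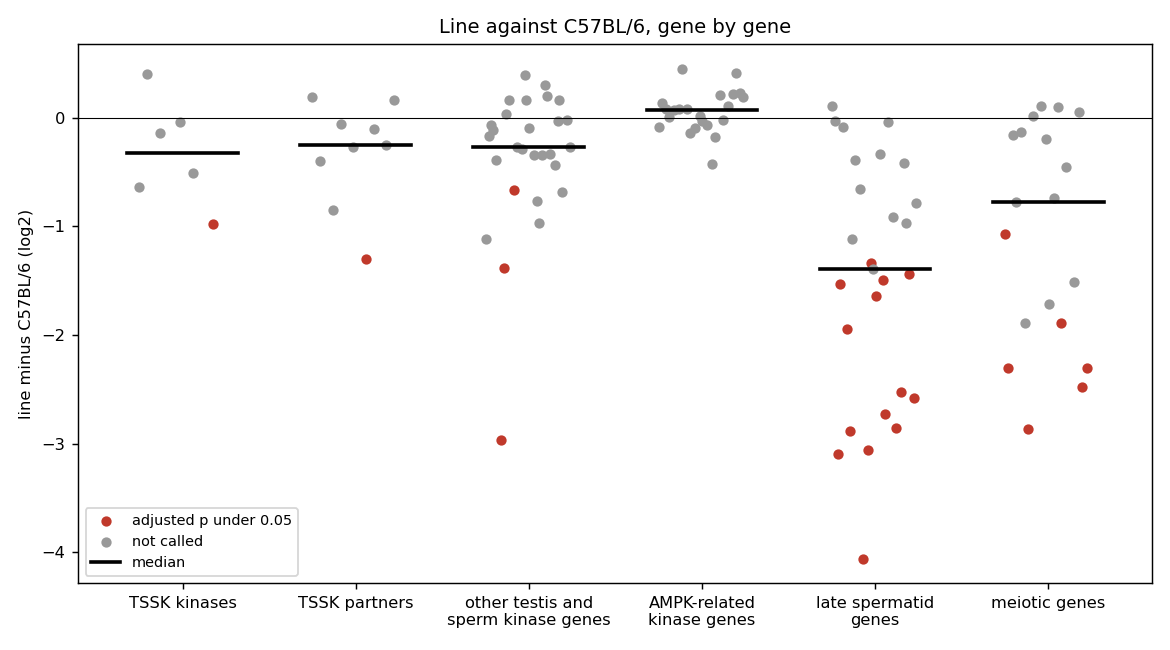
Log2 difference of the line minus C57BL/6 for each measured gene of 6 lists, 1 point a gene, with the median as a bar and called genes in red. The kinases lie between -0.98 and 0.40, while late spermatid genes reach -4.06.

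Genes with the profile most like that of a kinase were sought by the root mean square difference between log2 profiles over the 7 arrays, each centred on its own mean. This was done for the 4 kinases whose arrays span at least 1 log2 unit, among 11870 probe sets. Tssk1 and Tssk4 reached that span only through the C57BL/6 array, as their line arrays spanned 0.92 and 0.25. The nearest to Tssk1 was Cdyl, a chromodomain protein of spermatogenic chromatin, at 0.056 log2 units, followed by Epb41l2 at 0.061 and Wdr48 at 0.067. For Tssk3 they were Abcc12, Lig3 and Arid2, at 0.058 to 0.079. For Tssk5 they were Fam71a at 0.053, Calr3, a testis calreticulin, at 0.070 and Mastl at 0.097. Like Tssk5, all 3 read higher on TG3 replicate 1 and nonTG3 replicate 3 than on any other line array. That position was shared by 13.9% of all probe sets. Tssk4, low and even on the line's arrays, was most like Capn11, a testis calpain, Top2a, a topoisomerase of dividing cells, and Rnf126, at 0.066 to 0.070. Capn11 read 3.26 to 3.44 on the line's arrays, all below the lowest array median, and 4.27 in C57BL/6, and it passed the filter on the mean only through the C57BL/6 array, so its place in that order carries no weight. Top2a and Rnf126 also read higher in C57BL/6, at 4.86 and 7.49, than on any line array, where they reached 3.86 and 6.50. The order for Tssk4 thus rests largely on that 1 array. The kinases' 3 nearest genes did not include another testis-specific serine kinase.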

How the data were processed

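RNA of pooled mouse sperm was measured on 7 single-colour arrays. The authors deposited log2 intensities; per the submitters' processing notes they used R 3.1.0, oligo, RMA and limma. RMA subtracts background, equalises the arrays' distributions and gives 1 value per probe set. Direction and scale follow from the values, which are not centred per gene. The labels name no filter, build or scan batch. The array medians were 3.52 to 3.61. Precision is limited by the number of arrays.

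Of 33604 probe sets, 23493 had 1 gene symbol in the platform annotation, 1801 several and 8310 none. Those with 1 symbol were tested with limma 3.58.1 in R 4.3.3: a mean per group over all 7 arrays, eBayes, and Benjamini-Hochberg adjustment per contrast, with 4 residual and 1.65 prior degrees of freedom. Intervals are 95% limma intervals. Ties were common: 30.9% of probe sets took 4 or fewer distinct values over the 6 arrays of TG3 and nonTG3. In lists, the probe set of highest mean stood for its gene. All 6 kinases and their measured partners were named, with up to 4 genes of each other list by smallest p and the 3 nearest profiles among means at or above the lowest array median, leaving out predicted names. Named in addition were Prm1 as a defining marker, Kdm1a as the mouse gene for the demethylase and Cyp11a1 for its differing probe sets. The members, lists and alternatives were chosen with earlier results of these data known. Simulated data had 23493 probe sets, with 100 changed at each size. For the line against C57BL/6, 20% of changes of 1 log2 unit and 68% of changes of 2 were called, with 7 false calls. For TG3 against nonTG3 the shares were 43% and 80%, with 5 false calls. Simulated noise was normal and independent between arrays. It held no exact ties and no shift shared by arrays, so the shares may differ for these data. Figures were drawn with matplotlib 3.10.9.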

Additional observations from a re-analysis of the deposited data

Results flagged for a closer look

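Tssk2 on TG3 replicate 2 stood apart from the other arrays of the line: it read 6.96, while the other 5 arrays lay between 6.45 and 6.64. The gap to its nearest neighbour was 0.635 of the whole range by Dixon's ratio, just past the critical value of 0.625 for 6 arrays. 3 of the other 5 arrays were exactly tied. Chance flags about 1 in 20 such sets, and 6 kinases were examined.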

How the results depend on the processing

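The lower signal of Tssk4 in the line kept its direction in all 18 alternatives (-1.02 to -0.87) and its call in 15, with adjusted p between 0.0108 and 0.0875. Not all of these could differ from the main result. The thresholds of 0.1 and 0.01 reuse the main fit, so no direction could change there and no call could be lost at 0.1. For the line, the fit with only the groups compared is the main fit itself. The count of kinases called became 0 of 6, from 1, for the line, TG3 and nonTG3 against C57BL/6 at a threshold of 0.01 and without TG3 replicate 1 and nonTG3 replicate 3 together, for TG3 also after repeated quantile normalization, and for TG3 and nonTG3 with only the groups compared. Fits without arrays used fewer samples, and the cause of the loss under repeated normalization was not tested. Leaving out 1 array gave counts of 0 to 1 for these 3 contrasts: 0 for the line without nonTG3 replicate 2, for TG3 without any 1 of its arrays or nonTG3 replicate 2, and for nonTG3 without TG3 replicate 2 or nonTG3 replicate 2. The partner count of 1 in the line became 0 at 0.01 and without both arrays. TG3 against nonTG3 had 0 calls throughout. Over all probe sets, the 710 calls of the line became 240 at 0.01, 350 to 496 without 1 array and 0 without both arrays.

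Uncalled estimates near 0 changed sign. Tssk5 became 0.026 in the line under repeated quantile normalization, and in nonTG3 against C57BL/6 -0.0046 under array weights and -0.22 without both arrays. Tssk3 in nonTG3 against C57BL/6 became 0.058 under repeated quantile normalization. With 1 array left out, Tssk5 ran from -0.22 to 0.075 in the line, -0.48 to 0.11 in TG3 and -0.22 to 0.26 in nonTG3 against C57BL/6, and -0.52 to 0.086 in TG3 against nonTG3. Tssk3 in nonTG3 against C57BL/6 ran from -0.21 to 0.088 and Tssk6 in TG3 against nonTG3 from -0.052 to 0.27. Tssk1, Tssk2 and Tssk4 kept their direction in every contrast and alternative, and Tssk6 kept it against C57BL/6. Replicate numbers are shared by TG3 and nonTG3, but same-numbered arrays did not deviate together (correlations of -0.449, 0.0159 and -0.403 for numbers 1, 2 and 3). With the replicate number as a block, TG3 against nonTG3 gave 0 of 6 kinases and 0 of 9 partners, as without it.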
